A study of Rattus norvegicus with 2 samples.

Results

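The Gimap genes encode GTPases of immunity-associated proteins, a family of GTP-binding proteins made chiefly by lymphocytes and, for some members, by endothelial cells. They were compared here between cervical lymph nodes of unstressed and of restrained rats. The members were the 7 genes Gimap1, Gimap4, Gimap5, Gimap6, Gimap7, Gimap8 and Gimap9, chosen by name among the 36174 gene names on the array, and all of their 8 probes were used. Both groups were male Sprague-Dawley rats of 10 to 12 weeks. The C group had no restraint, and the RS group was tied to a board on its back, for a time that the labels do not give. The comparison in the paper is that of its RS30 group, which is named for the minutes of restraint. All rats were anesthetized with halothane before they were killed. Each group was measured on 1 array, so that no difference between the groups has a replicate check and no test was run. How many rats gave the RNA of an array is not stated in the sources used here.

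GIMAP proteins share a GTP-binding domain of one type, and several are held on the membranes of organelles. They are known for keeping resting lymphocytes alive, and rats without a working Gimap5 lose most of their peripheral T cells. In a lymph node, which is packed with resting T and B cells, their transcripts are normally well detected. All 7 genes were well above background on both arrays.

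None of the 7 Gimap genes was higher or lower by 2-fold or more on the RS array. Of all 21096 genes screened, 4.28% were lower by 2-fold or more and 3.46% were higher by 2-fold or more. These were 903 and 730 genes, and without the probes that hold a run of alternating A and G bases they were 498 and 716. A count of 0 among 7 genes is near these shares. Of the 7 Gimap genes, 6 had a lower normalized signal on the RS array and 1, Gimap5, had a slightly higher one. The median log2 difference over the family was -0.16, a ratio of 0.898. The genes ranged from -0.36 for Gimap1 to 0.06 for Gimap5 in log2 difference. Among all 19214 genes above background on both arrays, 47.8% were lower by any amount, and the median log2 difference was 0.015.

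The array reads transcripts through probes of 60 bases, and 3 of the 8 Gimap probes are shown because they have a reading frame without an internal stop codon and lack the polyadenylation hexamer AATAAA. They are given 5′ to 3′ in the sense of the transcript, as the files list them.
Gimap1 probe: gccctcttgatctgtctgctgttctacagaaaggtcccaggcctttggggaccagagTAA
Gimap4 probe: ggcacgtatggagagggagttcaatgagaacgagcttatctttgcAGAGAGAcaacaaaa
Gimap6 probe: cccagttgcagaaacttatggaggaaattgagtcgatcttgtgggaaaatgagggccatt
Capitals in the Gimap1 probe mark a stop codon that ends its first frame. Capitals in the Gimap4 probe mark a run of alternating A and G bases. Such runs of 6 or more bases occurred in the probe of 4.8% of the screened genes and of 45.2% of the genes lower by 2-fold or more, and among the Gimap probes in that of Gimap4 alone. The probes of Gimap7 and Gimap9 and the second probe of Gimap5 hold AATAAA. Where the probes lie in exons or untranslated regions was not analysed here.

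Gimap1 is anchored in the Golgi membrane and is needed for the survival of mature T and B cells. Its probe covers bases 76833283 to 76833342 of chromosome 4 (forward strand), by the positions listed for the probes, which carry no build of their own while the file header gives rn4. Its spot intensity went from 4533 (C) to 3306 (RS). This was a log2 difference of -0.36 after normalization, a ratio of 0.781, with an error of 0.20 from the scanner software for the spot measurement alone. It was the lowest difference in the family, and 13.1% of the genes above background on both arrays had a lower one. Among the quartile of screened genes with the highest signal, where 5 of the 7 members lay, 6.24% had a lower one.

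Gimap5, the neighbor of Gimap1 on the chromosome, is a lysosomal membrane protein and the member whose loss depletes T cells in rats. It was measured by 2 probes. At the first, from 76843132 to 76843191 on the forward strand, the intensity went from 8196 (C) to 8006 (RS). At the second, from 76844939 to 76844998, it went from 337 to 346. The log2 differences were 0.06 and 0.13, both positive and both smaller than their spot errors of 0.20. Gimap5 was thus the member with the highest difference, and both of its probes gave that sign.

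Gimap7 encodes a GTPase found on lipid droplets. Its probe (76816555 to 76816614, forward strand) went from an intensity of 8406 (C) to 6687 (RS). In log2 units it differed by -0.23, a ratio of 0.852 (spot error 0.20). Gimap8 encodes the largest member, which carries several GTP-binding domains. Its probe (76749017 to 76749076, forward strand) went from 160 (C) to 125 (RS), or -0.25 in log2 units (spot error 0.21). These genes and Gimap1 were the 3 members whose difference was larger than 1 spot error.

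Gimap9 went from an intensity of 20391 (C) to 17110 (RS) at its probe (76768301 to 76768360, forward strand), a difference of -0.16 in log2 units (spot error 0.20). Gimap4, which is abundant in T cells and affects how they die, went from an intensity of 871 (C) to 768 (RS) at its probe (76783942 to 76784001, forward strand). Its log2 difference was -0.08, the smallest decrease in signal of the family.

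Gimap6 encodes a protein that binds the autophagy protein GABARAPL2. Its probe (76795206 to 76795265, reverse strand) went from an intensity of 301 (C) to 253 (RS), or -0.15 in log2 units (spot error 0.20). A further probe, which the files name only by the transcript ENSRNOT00000049038 but describe as IMAP family member 6, lies next to it from 76793935 to 76793994 on the same strand. This probe, which the choice of members by name left out, went from 3157 (C) to 2679 (RS). Its log2 difference of -0.14 was within the error of that of the named Gimap6 probe. Gimd1, on chromosome 2, whose product has a related GTP-binding domain, was below the background limit on each array.

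**Figure D1:**
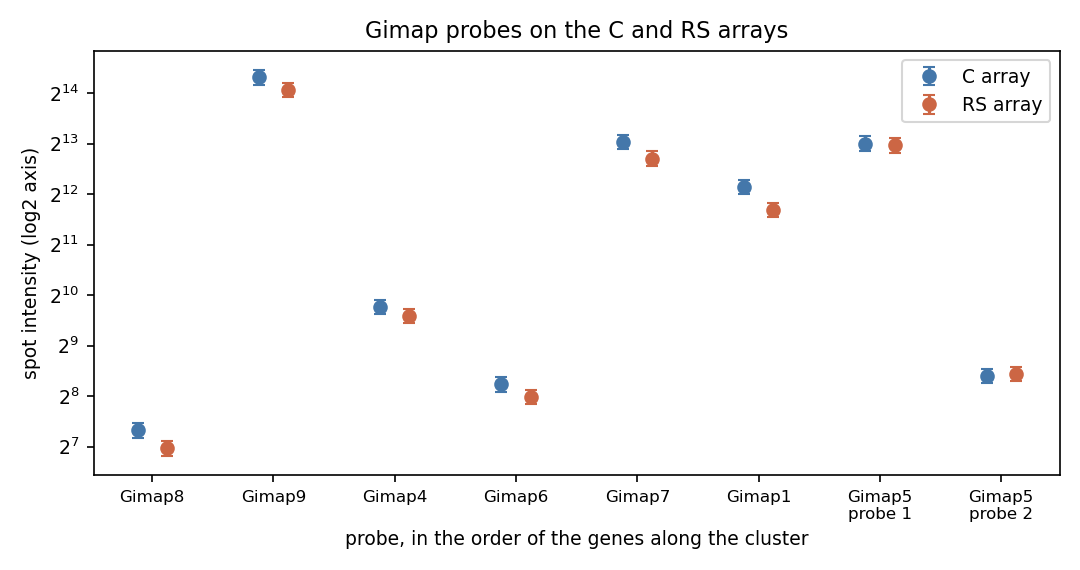
Spot intensity (vertical axis, log2 scale) of the 8 Gimap probes on the C array (blue) and on the RS array (orange), ordered along the chromosome. Bars are the error of 1 array, taken as an equal part of the spot error of the difference given in the text. Signals are to be compared between the arrays for 1 probe and not between probes, and before normalization only the second Gimap5 probe had the higher intensity on the RS array.

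The size of these differences was set against 2 measures of the spot error, since each Gimap probe was printed in 1 spot. By the error of the scanner software, 0 of the 7 genes were lower by more than 2 spot errors, compared with 9.86% of all genes above background on both arrays. The share of those genes that were higher by as much was 10.8%, and 0 Gimap genes were. These shares also cover probes printed in more than 1 spot, whose averaged error is smaller. They are thus not a like comparison for the Gimap genes, whose errors were 0.204 to 0.206. The second measure was the scatter seen between spots of probes printed in 10 spots, for which the median SD in log2 units in the C group was 0.0737 where the intensity lay from 64 to 512 and 0.0506 where it was 4096 or more. By this smaller measure, Gimap1, Gimap7, Gimap8 and Gimap9, or 4 of the 7 genes, were lower by more than 2 times the SD of a difference, and 0 were higher. The same criterion was met by 20.1% of the genes with 1 spot and an intensity of 64 or more on both arrays in the lower direction and by 23.8% in the higher direction. Neither measure includes differences between rats.

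The log2 differences of the 7 genes spread over 0.42 units, with an SD of 0.14 between genes. Of the 21 pairs of members, 0 had differences that were apart by more than 2 spot errors, and 5 were apart by more than 2 times the SD seen between spots. These 5 pairs were Gimap1 against Gimap4 and Gimap5, and Gimap5 against Gimap7, Gimap8 and Gimap9. The middle 50% of all genes above background on both arrays lay between -0.18 and 0.19, and the share of pairs of all genes that were as far apart was not computed.

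The Gimap genes lie side by side. In RefSeq (assembly GRCr8), the 7 genes follow each other in the order Gimap8, Gimap9, Gimap4, Gimap6, Gimap7, Gimap1, Gimap5, with no other gene between them, and the files place their probes in the same order within 96 kb. Of the 6 nearest genes with a probe on either side, 8 passed the background filter on both arrays. On the side of Gimap8, Zfp775 and Repin1, which encode zinc finger proteins, had log2 differences of -0.10 and -0.13, Lrrc61 of -0.03 and Atp6v0e2, a subunit of the proton pump, of -0.09. Rarres2, which encodes the chemoattractant chemerin and is made by fat among other tissues, was at 0.38 with a spot error of 0.20, from an intensity of 1673 to 2037. On the side of Gimap5, Tmem176b and Tmem176a, a pair of membrane proteins of dendritic cells, were at -0.07 and -0.14, and Doxl1 at -0.23. Aoc1 was above background on the C array only, where its intensity was 21.5, and its signal there was at least 2.35-fold higher than the background limit on the RS array. RGD1559747, Doxl2 and Svs1 were above background on neither array.

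**Figure D2:**
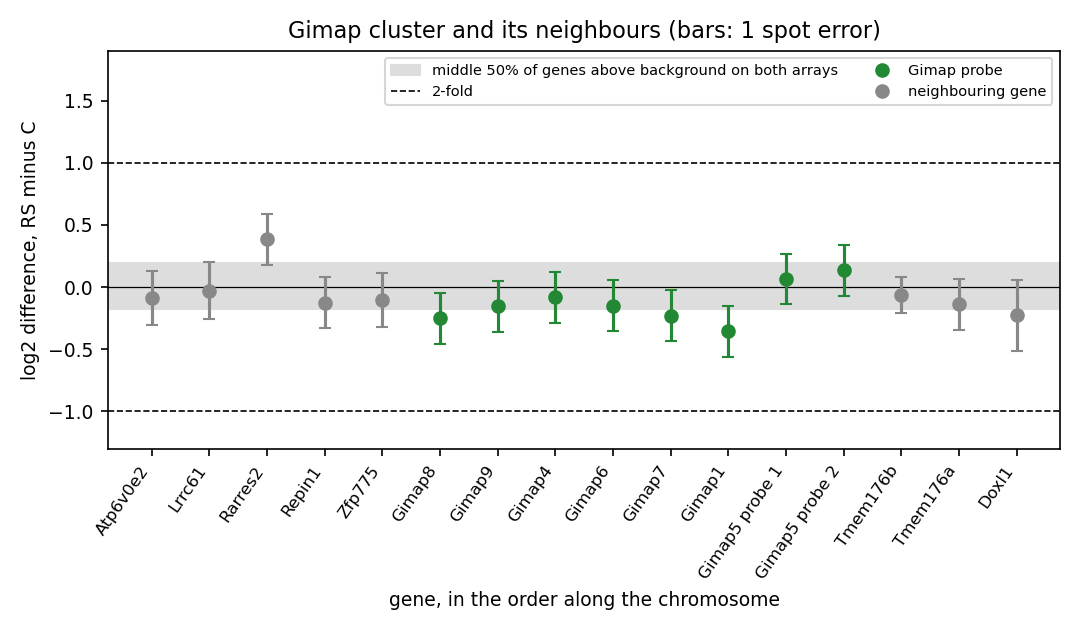
Log2 difference between the RS and the C array (vertical axis) for the 8 Gimap probes (green) and the 8 neighboring genes above background on both arrays (gray), in chromosome order, with bars of 1 spot error. The gray band holds the middle 50% of genes above background on both arrays, from -0.18 to 0.19, and all points lie inside the dashed 2-fold lines.

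The region upstream of the start is shown for Gimap1 and Gimap5, the adjacent genes with the lowest and the highest difference. Each stretch holds the 250 bases before the start of the gene in RefSeq (GRCr8), 5′ to 3′ on the forward strand, at chr4:79018223-79018472 for Gimap1 and chr4:79024975-79025224 for Gimap5.
Gimap1 upstream: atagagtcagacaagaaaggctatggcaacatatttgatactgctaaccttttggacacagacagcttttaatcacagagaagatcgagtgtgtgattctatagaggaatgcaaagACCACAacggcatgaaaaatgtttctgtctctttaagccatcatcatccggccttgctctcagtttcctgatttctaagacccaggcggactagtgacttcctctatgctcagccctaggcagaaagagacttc
Gimap5 upstream: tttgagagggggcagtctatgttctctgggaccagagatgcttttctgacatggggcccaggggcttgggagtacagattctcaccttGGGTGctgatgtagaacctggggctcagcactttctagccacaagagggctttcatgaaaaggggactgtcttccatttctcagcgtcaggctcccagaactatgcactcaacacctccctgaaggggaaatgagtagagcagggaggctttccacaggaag
Capitals mark the matches, on either strand, of 2 short motifs. One was TGTGGT, the core bound by Runx factors of lymphocytes, and the other was CACCC, which Kruppel-like factors bind. In windows of 250 bases before to 50 after the start, the Runx core occurred in 2 of the 7 Gimap genes, Gimap1 and Gimap8, and in 17.3% of 33469 windows of all genes. The Kruppel-like motif occurred in 5 of the 7 genes, Gimap4, Gimap5, Gimap6, Gimap7 and Gimap9, and in 54.9% of all windows. None of the 7 windows held both motifs, so that no matches of the pair overlapped. The Ets motif CCGGAAG was found in 0 of the 7, compared with 8.75% of all windows, and the Sp1 motif GGGCGGG in 0, compared with 22.7%. The AP-1 motif TGACTCA was likewise found in 0, compared with 4.63% of all windows, and the glucocorticoid receptor palindrome in 0, compared with 0.0508%. The Gimap windows had a median of 2 CG pairs, compared with 7 over all windows, and the Ets and Sp1 motifs searched each hold a CG pair. Other forms of these motifs were not searched, so that a count of 0 does not show that a factor has no site.

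The Gimap genes were then set beside other genes of lymphocytes. In a whole node, fewer cells of a type and less RNA per cell cannot be told apart. Of 19 T cell genes, all above background on both arrays, 15 had a lower signal on the RS array. The median log2 difference of this list was -0.28, compared with -0.16 for the Gimap family. In the list, 7 genes were lower and 1 was higher by more than 2 spot errors. Over all genes above background on both arrays, these shares were 9.86% and 10.8%. Only 1 gene of the list was lower by 2-fold or more. This gene was Bcl11b, a transcription factor that maintains T cell identity, with intensities of 1992 (C) and 842 (RS), or -1.14 in log2 units. Cd5, a coreceptor that dampens T cell receptor signals, was at -0.97. The invariant chains of the T cell receptor complex had log2 differences of -0.15 for Cd3d, -0.17 for Cd3e, -0.14 for Cd3g and -0.28 for Cd247. Other T cell genes were at -0.77 for Cd6, -0.64 for Cd2, -0.58 for the kinase Lck and -0.52 for Cd8a, while the coreceptor Cd4 was at 0.01. The probe of Cd6, like that of Gimap4, holds a run of alternating A and G bases. Cd28, the costimulatory receptor, was the highest of the list at 0.57, followed by Trat1 at 0.27.

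Of 15 B cell genes, 8 had a lower signal on the RS array, and the median log2 difference was -0.03. None was past 2-fold. Fcer2, the low-affinity IgE receptor, was the lowest at -0.61, and Blk, a B cell kinase, followed at -0.27. Pou2af1, a coactivator of immunoglobulin genes, was the highest at 0.39, and Cd72 was at 0.20. For 7 plasma cell genes the median was -0.24. The lowest were Sdc1 (-0.31), the plasma cell surface proteoglycan, and Tnfrsf17 (-0.25), and the highest were Prdm1 (0.72), which drives plasma cell formation, and Derl3 (0.09). For 9 genes of NK and cytotoxic cells the median was -0.24, and Eomes, a transcription factor of these cells, was at -1.73, with intensities of 344 (C) and 96.6 (RS). The Gimap median lay between those of the T cell and B cell lists, and whether it differed from either was not tested.

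The 10 genes of naive lymphocytes went in both directions. Klf2, a factor that keeps T cells resting and sustains their exit from nodes, was at -1.05, with intensities of 569 (C) and 256 (RS). The homing receptor Ccr7 was at -0.53. The survival receptor Il7r was at 0.97, from an intensity of 1547 to 2834, and Foxo1, which drives its transcription, was at 0.48. The median was -0.0046. The log2 differences of the 7 Gimap genes, from -0.36 to 0.06, spanned a narrower range than those of these genes, from -1.05 to 0.97.

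**Figure D3:**
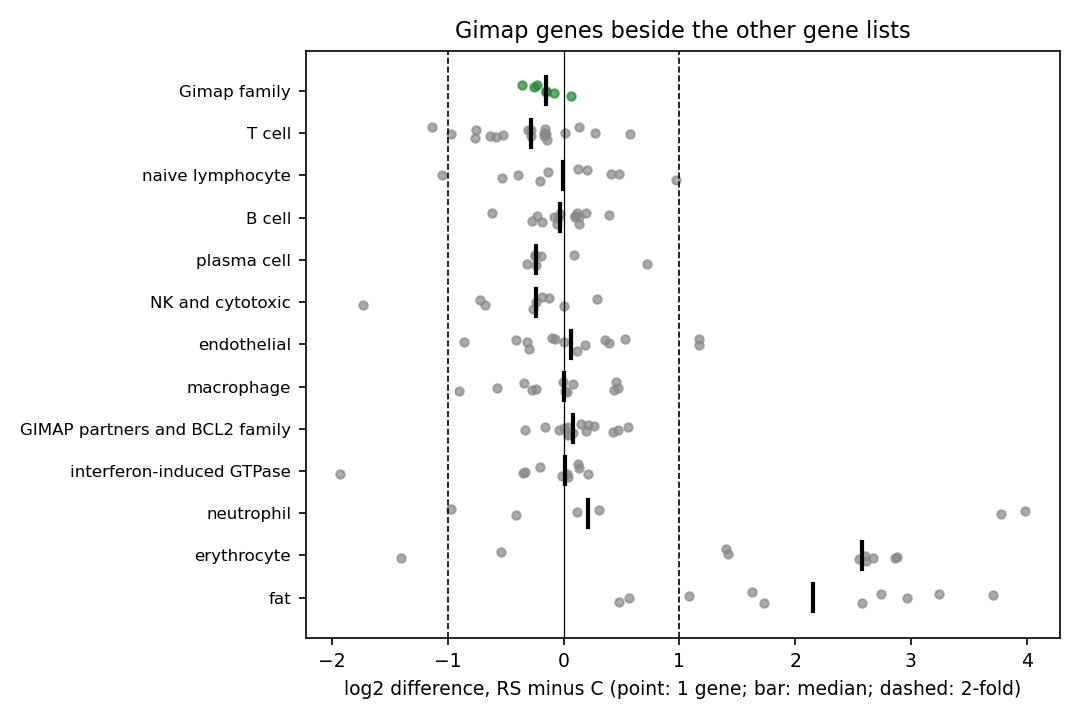
Log2 difference between the RS and the C array (horizontal axis) for each gene (point) of the Gimap family (green) and of 12 other lists (gray), with the median of each list as a black bar and 2-fold as dashed lines. The Gimap genes lie between -0.36 and 0.06, and the erythrocyte and fat lists have medians of 2.58 and 2.16.

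Proteins that GIMAP proteins are known to bind, with other members of the BCL2 family, formed a list of 16 genes, of which 15 were above background. None was past 2-fold, 4 were higher and 0 were lower by more than 2 spot errors, and the median log2 difference was 0.08. Over all genes above background on both arrays, 10.8% were higher and 9.86% lower by as much. Among the 4 were Gabarapl1 at 0.21 and Map1lc3b at 0.19, with small spot errors of 0.0645. The spot errors of the other genes among the 4, Bcl2l11 and Mcl1, were 0.204. The highest were Bcl2l11, which encodes the death-promoting protein BIM, at 0.55, and Mcl1, a survival protein, at 0.47. The lowest were Bbc3 at -0.33 and Bak1 at -0.16, both of which promote cell death. Bcl2 was at 0.04, Bax at 0.04 and Gabarapl2, the partner of GIMAP6, at 0.15.

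Among other GTPases, 10 interferon-induced genes had a median of 0.01. Gbp4 was the only gene of this list past 2-fold, at -1.93, from an intensity of 428 to 105, and its probe holds a run of alternating A and G bases. Mx1 was next lowest at -0.35, and the highest were Gbp2 (0.21) and Igtp (0.14).

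By the pair of normalized levels on both arrays, the genes nearest to the median of the Gimap family among 66 genes of the T cell, naive lymphocyte, B cell, NK and endothelial lists included Cd247, Zap70, Fcrla and Cd6. The distances of these were 0.0561, 0.427, 0.479 and 0.537 log2 units. A probe's signal also depends on its sequence, so that likeness of this kind, over 2 arrays, describes the probes and not the amount of transcript.

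Markers of other cells moved between the arrays as well. Of 10 erythrocyte genes above background on at least 1 array, 8 were higher by 2-fold or more, and their summed intensity went from 11686 to 65939. The embryonic globin Hbe1 was above background on the C array only, at an intensity of 24.1. On the RS array it was lower by at least 2.64-fold, a log2 bound of -1.4 with a spot error of 1.4. Klf1, an erythroid transcription factor, was at -0.54 in log2 difference. Slc4a1, the erythrocyte anion exchanger, was below the background limit on each array, as were Epb42, Hemgn and Rhag. Of 10 fat genes, 8 were higher by 2-fold or more, and their summed intensity went from 7169 to 18909, while Plin1 and Ucp1 were not above background. The summed intensity of the T cell list went from 55579 to 43086, and that of the B cell list from 46577 to 47017. The sums of these lists are of intensities before normalization and weigh the brightest probes most. For 14 endothelial genes, the median log2 difference was 0.06, 2 were higher by 2-fold or more (Emcn and Flt1), and the lowest was Cldn5 at -0.86. Emcn went from a low intensity of 20.6 (C) to 43.2 (RS). Flt1, above background on the RS array only, went from 8.13 to 19.9, so that its difference is a lower bound. The median of 12 macrophage genes was 0.0071. Of 6 neutrophil genes above background, 2 were higher by 2-fold or more and the median was 0.21. These were S100a8, from an intensity of 19.3 to 286 (3.99 in log2 difference), and S100a9, from 36.3 to 464 (3.78), which encode calcium-binding proteins of neutrophils and monocytes. Ltf, which encodes lactoferrin, was at -0.97 and Mmp8 at -0.41, while Mpo, Elane and Camp were below the background limit on each array. The part of these cells in the Gimap differences was not tested.

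The scale between the arrays bears on differences of this size. The 75th percentile of the RS array was lower than that of the C array by a log2 difference of -0.10 before normalization. After normalization, 8 probes for added control RNA, well above background on both arrays, had a median log2 difference of -0.01 and a range from -0.04 to 0.03. Without normalization, Gimap5 was at -0.03 and all 7 genes had a lower signal on the RS array. With the control probes as the scale, the median of the family was -0.16 and 6 genes were lower.

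**Figure D4:**
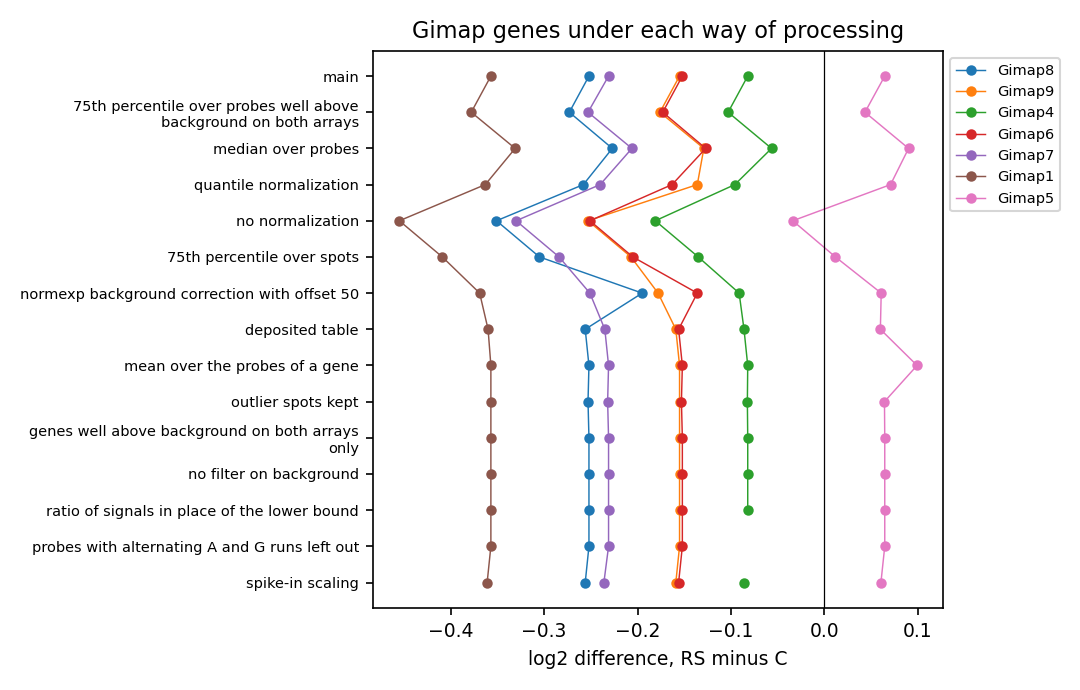
Log2 difference between the RS and the C array (horizontal axis) of each Gimap gene (color) under the main settings and 14 other ways of processing (vertical axis), with lines that only join the points of a gene. Gimap1 is the lowest gene and Gimap5 the highest in each, and Gimap4 has no value where probes with alternating A and G bases are left out. Filters on background and a shift of a whole array could not change the order of the genes.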

How the data were processed

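RNA of cervical lymph nodes was labeled with Cy3 and hybridized to 1 array (SurePrint G3 Rat GE 8X60K) per group. The authors scanned the arrays on 1 slide and deposited the spot intensity values of Feature Extraction 11.5.1.1, background-subtracted within each array and not normalized between arrays. A second file from the authors holds log2 values, described in the paper as shifted to the 75th percentile, and 100% of its values for 45598 probes lay within 0.1 of those computed here.

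Control spots and outlier spots (489 on the C array, 660 on the RS array) were left out, the log2 signal was averaged over spots of the same probe, and each array was shifted by its 75th percentile over probes. A gene was represented by its brightest probe and screened if the scanner software marked this probe as well above background on either array. A gene above background on 1 array only has a difference against the lowest signal well above background, as a lower bound. Differences are RS minus C, with a threshold of 2-fold. The number of arrays limits the precision. Gene symbols of the 7 members matched RefSeq (GRCr8).

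The members, the 15 gene lists and the alternatives were chosen with earlier results of these data known. Genes were named by a rule: all members and their neighbors, and in each list the genes past 2-fold and the 2 highest and 2 lowest. Some that it selects, chiefly in lists of other cells, and 1 whole list are not reported here, and Cd2, Cd3d, Cd3e, Cd3g, Cd4, Cd8a, Lck, Bcl2, Bax and Gabarapl2 were added after their values were seen. Promoter windows came from RefSeq. No protein sequences were used. The steps were tested on arrays simulated from the C array, with planted changes past 2-fold and spot noise but no differences between rats. That test does not bear on differences as small as those of the Gimap genes. R 4.3.3, limma 3.58.1, Python 3.11.15, numpy 2.4.6, pandas 2.3.3 and matplotlib 3.10.9 were used.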

Additional observations from a re-analysis of the deposited data

How the results depend on the processing

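No paired analysis was possible because there is a single array per group, and for the same reason none could be left out. Of 14 alternatives, 13 were planned, and scaling to the added control RNA was chosen after the data had been seen. The family median stayed between -0.25 and -0.13, 0 members reached 2-fold in any, between 5 and 7 members were lower (5 where the Gimap4 probe was left out), and each of the 97 member values stayed within its spot error. Filters on background or on alternating probes could not change a member value that was kept. The mean over probes could change only that of Gimap5. The count of 97 is therefore in part fixed by construction. Gimap5 changed sign without normalization. The median over all genes shifted most without normalization, by -0.0995.

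With normexp, 378 genes were lower and 234 higher by 2-fold or more. The medians were 1.9 for erythrocyte, 1.4 for fat and -0.12 for salivary gland genes (-0.47 over 3 genes under the main settings). With no filter on background, 2148 genes were lower and 2031 higher, and these medians were 1.84, 1.68 and -0.064. With genes above background on both arrays only, 601 were lower and the skeletal muscle median was 0.11, compared with -0.13 under the main settings. Without alternating probes, 498 were lower and 716 higher, and with the mean over probes the fat median was 1.82. Filters change these counts by construction, and the other causes were not tested. The median of the naive lymphocyte, B cell, endothelial, macrophage, BCL2 family and interferon-induced lists, all near 0, changed sign in at least 1 alternative. That of skeletal muscle changed sign as well, and that of the T cell list stayed between -0.38 and -0.25.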
